A study of Mus musculus with 82 samples.

Results

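The transcriptome of aVSMC (mouse aortic vascular smooth muscle cells) was compared between 24 h incubation with epidermal growth factor and angiotensin II together (EGF+AngII) and 24 h without stimulus (control). The groups compared held 12 of the 82 libraries of the RNA-sequencing study, 6 per group, chosen by their label for incubation and time. The test used a model fitted to all libraries of 24 h, with the mouse as a term. All genes outside chromosomes 9, X, Y and MT were used. The study asked how the receptor of EGF (EGFR) acts together with the angiotensin receptor AT1R or the thromboxane receptor TP on gene expression in these cells. Other cultures of the same 6 mice received EGF, AngII, the TP agonist U46619 or further combinations of these for 24 h, and 40 libraries were made after 48 h.

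Both groups held primary cells from the aorta of C57BL/6 mice, with 1 culture per group from each of 6 mice, so each EGF+AngII culture was compared with the control culture of the same mouse. All cultures had been expanded with serum, insulin and EGF for up to 7 passages and were then kept without serum and supplements for 24 h. The EGF+AngII cultures next received 10 µg/L EGF and 10 nM AngII in the same medium for 24 h, and the control cultures received the medium alone. Each sample is a passaged culture from a single animal, and the labels name no engineered allele. The libraries held 19170622 to 20105888 counts (median 19733455) in control and 19082329 to 19958349 counts (median 19599347) with EGF+AngII.

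EGFR is a receptor tyrosine kinase that signals through RAS and the kinase ERK, which switches on growth genes and, with them, inhibitors that restrain the same pathway. In cells that leave quiescence, cyclins and their kinases release E2F transcription factors, which raise the genes for DNA replication, and genes for mitosis follow later under factors such as FOXM1. AngII acts on AT1R, a receptor coupled to G proteins that contracts vascular smooth muscle through calcium. Smooth muscle cells of the aorta are largely non-dividing and contractile, but can lose contractile proteins and divide again in culture or after injury.

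EGF+AngII raised many genes for DNA replication, such as Mcm6 and Pcna, and some G1 cyclins, inhibitors of ERK signalling and ETS-type factors, such as Ccne2, Dusp6 and Etv5. Genes it lowered included the fibulin Fbln7, the protease Mmp11, the complement genes C2 and C3 and the zinc finger factor Klf15. Differentially expressed genes (DEG) had a false discovery rate (FDR) under 0.05 in both edgeR and DESeq2 and a mean of at least 5 FPM (fragments per 1000000 of a TMM-scaled library) in 1 of the groups compared. Of 14528 genes that could be called, 455 (3.13%) were DEG, with 224 higher (1.54%) and 231 lower (1.59%) after EGF+AngII. Their median log2-fold change was 0.90 for the higher and −0.77 for the lower genes, against −0.03 over all 14653 genes tested, and 145 of them changed at least 2-fold (88 higher, 57 lower). Protein-coding genes made up 436 of the 455. The count of DEG rested on the set of mice, since no gene (0 DEG by edgeR and DESeq2) passed without mouse 1, 2, 3 or 5, while 1696, 2729, 3859 and 3092 genes still had p under 0.05 before adjustment by edgeR and by DESeq2. It was 476 without mouse 4 and 1115 without mouse 6. It was 0 when the mouse was not a term in the model (1316 genes with p under 0.05 before adjustment in each tool). The count was also 0 with only the control and EGF+AngII libraries in the fit. In that fit 3459 genes had p under 0.05 before adjustment by edgeR and by DESeq2.

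Among the DEG, 363 changed the same way in 6 of 6 mice (200 of them higher), compared with 17.5% of all genes tested. The DEG were called on these libraries with the mouse as a term, which favours such genes, so this contrast follows in part from the selection. The cultures of different mice differed so much in level that the 6 EGF+AngII values lay wholly outside the 6 control values for 44 of the 455 DEG (9.67%), compared with 0.621% of all genes tested. Arhgap44 lay closest inside the FDR threshold, with a log2-fold change of −0.80 and an FDR of 0.0495 in edgeR, and Spdl1 closest outside, with 1.78 and 0.0501.

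The size of the response differed between the mice. The median change of the DEG toward their called direction was 1.62, 0.95 and 1.15 (log2) in mice 1, 2 and 3, and 0.26, 0.56 and 0.16 in mice 4, 5 and 6. Mice 1, 2 and 3 thus stood above mice 4, 5 and 6. In any 1 mouse 397 to 454 of the 455 DEG moved in the called direction, which their selection on the same libraries favours. Of 10374 genes with at least 5 FPM, 1494 were at least 2-fold higher and 1361 at least 2-fold lower in mouse 1. In mouse 6 these were 8 and 4 genes, and in mouse 4, 18 and 7 genes.

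**Figure D1:**
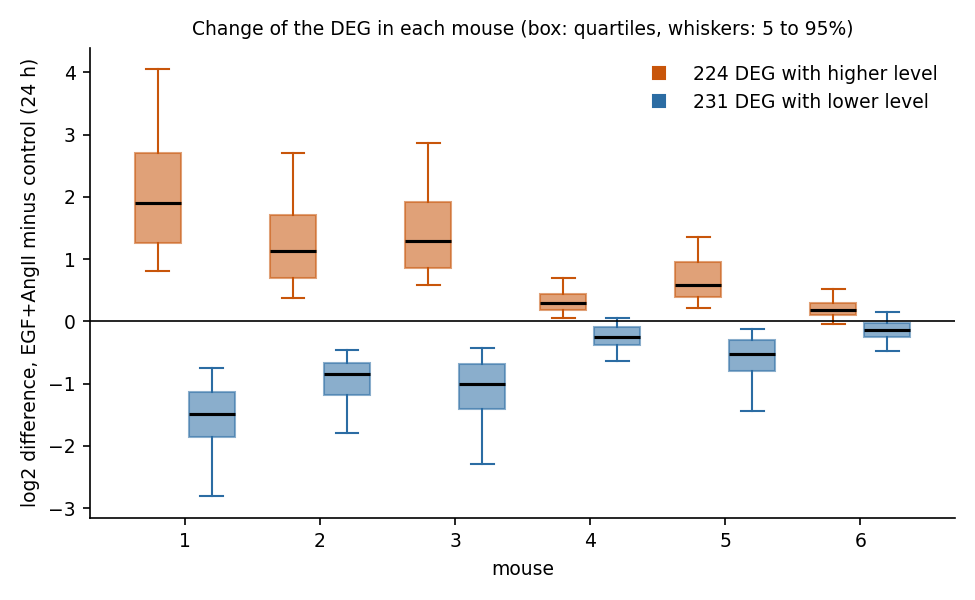
Change of the 455 DEG in each mouse, as the log2 difference in FPM between the EGF+AngII and the control culture (y axis) by mouse (x axis). Boxes show quartiles, whiskers the 5 to 95% range, orange the 224 higher and blue the 231 lower DEG. The medians toward the called direction run from 1.62 in mouse 1 to 0.16 in mouse 6.

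The summed levels of endothelial and of pericyte markers were higher in the control and EGF+AngII cultures of mice 4, 5 and 6 than in those of mice 1, 2 and 3. Not all single markers followed this. The endothelial marker Kdr was at 46.0 CPM in the control of mouse 3 and 7.16 to 13.9 CPM in those of mice 4, 5 and 6. The pericyte marker Kcnj8 was at 0.365 CPM in the control of mouse 2 and 0.149, 0.306 and 6.31 CPM in those of mice 4, 5 and 6. The summed level of 10 endothelial markers was 29.6, 16.4 and 100 CPM (counts per 1000000) in the control cultures of mice 1, 2 and 3 and 1092, 732 and 2791 CPM in those of mice 4, 5 and 6. With EGF+AngII it was 34.6, 13.9 and 68.1, then 1167, 712 and 2743 CPM, so the 2 cultures of a mouse were alike. Pecam1, an adhesion molecule of endothelial cells, ranged from 0.35 to 953 CPM in control, while Cdh5, the endothelial cadherin, was listed at 0 in every library. The sum of 7 measured glial and adipocyte markers was 9.58 to 109 CPM in the control cultures of mice 1 to 5 and 2366 CPM in that of mouse 6 (2241 CPM with EGF+AngII), where the fat-cell genes Adipoq and Plin1 reached 542 and 393 CPM. Pericyte markers summed to 66.2 to 632 CPM in control and 25.5 to 624 CPM with EGF+AngII, fibroblast markers to 1116 to 3626 and 965 to 2481 CPM, macrophage markers to 24.2 to 119 and 20.4 to 122 CPM, with Ptprc at 0, and lymphocyte markers stayed under 2 CPM. Smooth muscle markers summed to 2350 to 10974 CPM in control and 1381 to 16376 CPM with EGF+AngII. Acta2 (smooth muscle actin) was present at 1103 to 5522 CPM and Myh11 (smooth muscle myosin) at 2.57 to 101.5 CPM in control. None (0) of the marker genes was a DEG by edgeR and DESeq2, with 6 of those tested lower and 0 higher at an unadjusted p under 0.05 in edgeR. Of all genes that could be called, 13.5% were lower and 11.3% higher at that p. The part of these cells in the smaller response of mice 4, 5 and 6 was not tested, and fewer cells of a type and less RNA per cell cannot be told apart in bulk cultures.

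Among the 28 gene lists, those for DNA replication and for nucleotide supply held the largest shares of DEG. These were 46.3% and 46.4%, compared with 3.13% of all genes that could be called. Of 41 tested genes for origin licensing and replication forks, 19 rose and 0 fell, with a median log2-fold change of 1.10 over the list, and 40 were higher at an unadjusted p under 0.05 in edgeR, compared with 11.3% of all genes that could be called. Of 28 genes for nucleotide supply, S-phase repair and chromatin, 13 rose and 0 fell (median 1.41), and 27 were higher at that p. The upstream sequences of 4 of these genes are shown because the genes moved together and because E2F and the factor NF-Y (CCAAT box) are known for binding near starts of such genes. Only named genes of these lists whose promoter held a searched motif could be shown, at most 4 by smallest p. A match in each of them was therefore fixed by the choice and is no result. They are RefSeq sequences of GRCm38.p6, read 5′ to 3′ on the strand of the gene, 100 bases each, with capitals marking the letters of an E2F match (TTTGGCGC, TTTCCCGC, TTTGCCGC or TTTCGCGC, either strand) or of CCAAT (either strand). The RefSeq starts differ from the outermost starts of the GENCODE gene models used for positions elsewhere. Cdca7, a chromatin protein induced by E2F and MYC, has its window at chr2:72476119-72476218 (+), Rfc3, a subunit of the clamp loader, at chr5:151651209-151651308 (−), Mcm6, a subunit of the replicative helicase, at chr1:128359726-128359825 (−) and Pcna, the sliding clamp of DNA polymerases, at chr2:132253181-132253280 (−).
Cdca7: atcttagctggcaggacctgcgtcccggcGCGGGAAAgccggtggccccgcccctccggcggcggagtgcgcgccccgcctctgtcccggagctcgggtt
Rfc3: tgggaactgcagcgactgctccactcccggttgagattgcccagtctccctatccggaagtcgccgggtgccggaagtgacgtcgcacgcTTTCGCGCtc
Mcm6: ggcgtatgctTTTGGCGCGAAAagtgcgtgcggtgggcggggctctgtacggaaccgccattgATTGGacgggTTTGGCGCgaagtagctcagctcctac
Pcna: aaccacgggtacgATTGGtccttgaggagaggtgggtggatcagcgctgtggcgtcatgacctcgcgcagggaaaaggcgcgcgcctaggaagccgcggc

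In the 250 bases before the start, Mcm6 held 3 E2F matches, of which an overlapping pair on opposite strands makes up the first run of capitals. Cdca7 and Rfc3 held 1 each and Pcna 0, so the window of Pcna shows a CCAAT match only. Over the DEG with a promoter in the RefSeq table, 23 higher genes (13.3%) and 4 lower genes (2.22%) held an E2F match, compared with 355 of all 9708 genes (3.66%). The share was 7 of 34 for the replication list (20.6%), 5 of 22 for the nucleotide and S-phase list (22.7%) and 2 of 40 for the mitotic list (5%). The mitotic genes held the letters TTTGAA of the CHR element in 13 of 40 promoters (32.5%), compared with 12.98% of all genes. CCAAT stood in 67.5% of them, compared with 40.5% of all genes, but this was not particular to them. Its share was 64.7% in the replication list and 70% (14 of 20) in the list of FOXO and quiescence genes, whose DEG were lower. Among the DEG, 48.6% of the higher and 42.8% of the lower genes held CCAAT. The AP-1 letters TGACTCA or TGAGTCA stood in 1.16% of higher DEG and 4.33% of all genes, the FOXO letters GTAAACA in 2.78% of lower DEG and 2.59% of all genes, and the E-box CACGTG in 11.6% of higher DEG and 9.53% of all genes. A match describes letters only, and binding was not measured.

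Cdca7 (chr2:72476159-72486893) was among the clearest changes. Its lowest, median and highest levels were 4.25, 7.26 and 11.8 FPM in control and 7.3, 22.5 and 45.8 FPM with EGF+AngII. The log2-fold change was 1.34 ± 0.23 with an FDR of 0.0066 in edgeR. Here and below, ± gives the SE of the edgeR fit to all libraries of 24 h, not the spread between the 6 mice. In mice 1 to 6 Cdca7 changed by 2.11, 2.03, 1.92, 0.22, 1.60 and 0.11 (log2). The EGF+AngII cultures of mice 1, 2 and 3, at 31.2 to 45.8 FPM, lay far above all controls, those of mice 4 and 6 within the range of the controls. Ung (chr5:114130386-114139323), which removes uracil from DNA, was at 2.15, 3.32 and 4.47 FPM in control and 5.37, 9.89 and 21.9 FPM with EGF+AngII, with a log2-fold change of 1.55 ± 0.29 and an FDR of 0.0157 in edgeR. Its groups did not overlap.

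Mcm6 (chr1:128331590-128359664) was at 37, 54.9 and 90.3 FPM in control and 82.3, 116 and 211 FPM with EGF+AngII (log2-fold change 1.06 ± 0.23, FDR 0.0339 in edgeR). The highest control value reached into the range of EGF+AngII. Rfc3 (chr5:151642756-151651242) was at 9.63, 13 and 19.1 FPM in control and 16.6, 24 and 43.3 FPM with EGF+AngII (0.92 ± 0.20, FDR 0.0314 in edgeR), and these ranges also met at their edges. Pcna (chr2:132249162-132253314) was at 71.9, 62.3, 73.8, 183.9, 113 and 128 FPM in the control cultures of mice 1 to 6. With EGF+AngII it was at 371, 192, 358, 217, 205 and 152.2 FPM, a log2-fold change of 1.16 ± 0.26 with an FDR of 0.0339 in edgeR. The 3 control cultures highest in Pcna were those of mice 4, 5 and 6, and the level changed least in mice 4 and 6.

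Further replication genes rose from very low control levels. Mcm10 (chr2:4989714-5012791), which activates the helicase at origins, was at 0.77, 3.61 and 7.74 FPM in control and 9.16, 12.1 and 31.5 FPM with EGF+AngII (log2-fold change 1.92 ± 0.50, FDR 0.0408 in edgeR). Dtl (chr1:191537356-191575544), a receptor of the ubiquitin ligase that clears the licensing factor Cdt1, was at 2.04, 4.7 and 9.52 FPM in control and 11.3, 16.6 and 50.9 FPM with EGF+AngII (1.78 ± 0.43, FDR 0.0395). The groups did not overlap for either gene, nor for Fignl1 and Wdhd1, which act in recombination and at forks and rose by 2.03 ± 0.45 and 1.67 ± 0.35 on the log2 scale.

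Of the 22 tested G1 cyclins, their kinases, CDK inhibitors and E2F or RB family genes, 5 rose and 0 fell (median 0.30). These were Ccnd1, Ccne1, Ccne2, Cdk2 and Rbl1, 22.7% of the genes tested, compared with 3.13% of all genes that could be called. Ccne2 (chr4:11191351-11204779), a cyclin E that activates CDK2 at the G1/S border, was at 1.08, 0.821, 0.998, 3.9, 5.89 and 8.39 FPM in the control cultures of mice 1 to 6 and at 17.7, 11.9, 6.83, 5.98, 10.9 and 11.5 FPM with EGF+AngII. Its log2-fold change was 1.72 ± 0.48 with an FDR of 0.0462 in edgeR. The controls of mice 1, 2 and 3 held about 1 FPM, the others several, and the EGF+AngII cultures reached 5.98 FPM or more in every mouse. Ccnd1, the cyclin D that growth factors induce, had means of 253 FPM in control and 436 FPM with EGF+AngII (0.90 ± 0.26, FDR 0.048 in edgeR, higher in 6 of 6 mice). The inhibitor Cdkn1b (p27) was lower in 6 of 6 mice but missed the threshold, with −0.42 ± 0.13 and an FDR of 0.0595.

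Mitotic genes had a larger median change than the replication list but a smaller share of DEG. Of 48 tested genes, 4 rose (Mad2l1, Foxm1, Kif18a and Sgo1) and 0 fell, 8.33% compared with 3.13% of all genes that could be called. The median log2-fold change was 1.55. At an unadjusted p under 0.05 in edgeR, 47 were higher and 1 lower, compared with 11.3% and 13.5% of all genes that could be called. Foxm1 (chr6:128362967-128376146), a transcription factor for mitotic genes, was at 8.16, 13.5 and 23.5 FPM in control and 28.6, 45.7 and 132 FPM with EGF+AngII (1.56 ± 0.45, FDR 0.048 in edgeR), without overlap of the groups. The proliferation marker Mki67 had means of 16.9 and 96.5 FPM and was higher in 6 of 6 mice, but with 1.85 ± 0.62 its FDR was 0.0715 in edgeR. The exception was Pttg1 (securin), at −0.46.

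The cell-cycle genes showed the difference between the mice most plainly. The median level of 69 replication and nucleotide genes was 3.07, 3.16, 3.54, 4.22, 3.49 and 3.99 on the log2(FPM + 0.5) scale in the control cultures of mice 1 to 6, and 5.44, 4.73, 5.41, 4.34, 4.39 and 4.15 with EGF+AngII. The median change of the 48 mitotic genes was 4.72, 2.91 and 2.89 in mice 1, 2 and 3 and 0.33, 1.07 and 0.14 in mice 4, 5 and 6. In control the mitotic median was 1.52, 2.08 and 2.97 in mice 1, 2 and 3 and 3.74, 3.39 and 4.47 in mice 4, 5 and 6, so the mice with the small changes had the high control levels. The AngII cultures, which share no library with either group, had replication medians of 3.50, 3.11, 3.61, 4.17, 3.48 and 4.11 and mitotic medians of 2.71, 1.80, 2.94, 3.82, 3.31 and 4.41 in mice 1 to 6. In mouse 1 both medians were higher with AngII than in control.

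**Figure D2:**
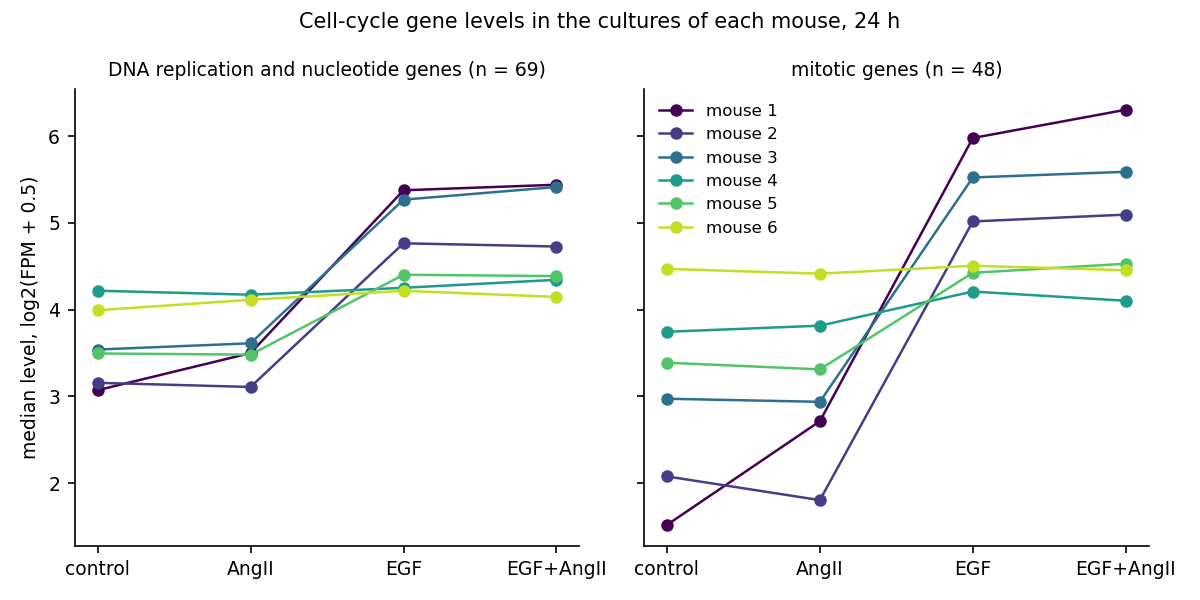
Median level of 69 DNA replication and nucleotide genes (left) and 48 mitotic genes (right) as log2(FPM + 0.5) on the y axis, in the control, AngII, EGF and EGF+AngII cultures (x axis) of each mouse (coloured lines). Lines of mice 1, 2, 3 and 5 rise between AngII and EGF, while those of mice 4 and 6 stay near their control level.

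Genes that ERK induces and that feed back on it were another group of higher DEG. Of 18 tested inhibitors of ERK and EGFR signalling, 5 rose and 0 fell (median 0.38). These were Dusp4, Dusp6, Spred1, Spry4 and Lrig1, 27.8% of the genes tested, compared with 3.13% of all genes that could be called. Dusp6 (chr10:99263231-99267489), a cytoplasmic phosphatase of ERK, was at 2.58, 12.5, 26.2, 55.2, 52 and 75 FPM in the control cultures of mice 1 to 6 and at 25.3, 66.8, 123, 64.3, 94.7 and 91.1 FPM with EGF+AngII. Its log2-fold change was 1.41 ± 0.31 with an FDR of 0.0339 in edgeR. Mice 1, 2 and 3 had the lowest control levels and the steepest rises, and the groups overlapped.

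Dusp4 (chr8:34807297-34819894), a nuclear phosphatase of ERK, was at 6.65, 28.9 and 85.8 FPM (lowest, median, highest) in control and 49.5, 87.7 and 127 FPM with EGF+AngII, a change of 1.56 ± 0.33 with an FDR of 0.0334 in edgeR. Spred1, a membrane-bound inhibitor of RAS and RAF signalling, was at 46.3, 75.1 and 109 FPM in control and 78.2, 117 and 186.8 FPM with EGF+AngII (0.74 ± 0.19, FDR 0.0413), and the rise of Spry4, of the related Sprouty family, was 1.86 ± 0.50 (FDR 0.0429). Lrig1, which promotes the degradation of EGFR, had means of 89.4 and 181.97 FPM (0.88 ± 0.25, FDR 0.048 in edgeR). All 5 were higher in 6 of 6 mice. The early-response phosphatases Dusp1 and Dusp2 of the same list had log2-fold changes of −0.34 and −0.42 and were not DEG.

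Of 18 tested AP-1, EGR and ETS-type transcription factors, 4 rose and 0 fell (median 0.33). The share of DEG was 22.2%, compared with 3.13% of all genes that could be called. Etv5 (chr16:22381309-22439719), an ETS factor induced downstream of ERK, was at 6.65, 19 and 37.9 FPM in control and 38.1, 50.3 and 69.8 FPM with EGF+AngII (1.36 ± 0.32, FDR 0.0363 in edgeR), just without overlap. Its relative Etv4 was at 0.898, 5.92 and 22.3 FPM in control and 12.4, 30.2 and 55.6 FPM with EGF+AngII (1.90 ± 0.48, FDR 0.0408), and was higher in 5 of 6 mice. Egr2 and Elk3, an early growth response factor and an SRF partner, rose by 1.501 ± 0.42 and 0.41 ± 0.10 on the log2 scale. Fos and Egr1, which respond within the first hour to growth factors, did not pass the test after 24 h, with −0.31 (FDR 0.479) and 0.57 (FDR 0.228 in edgeR).

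**Figure D3:**
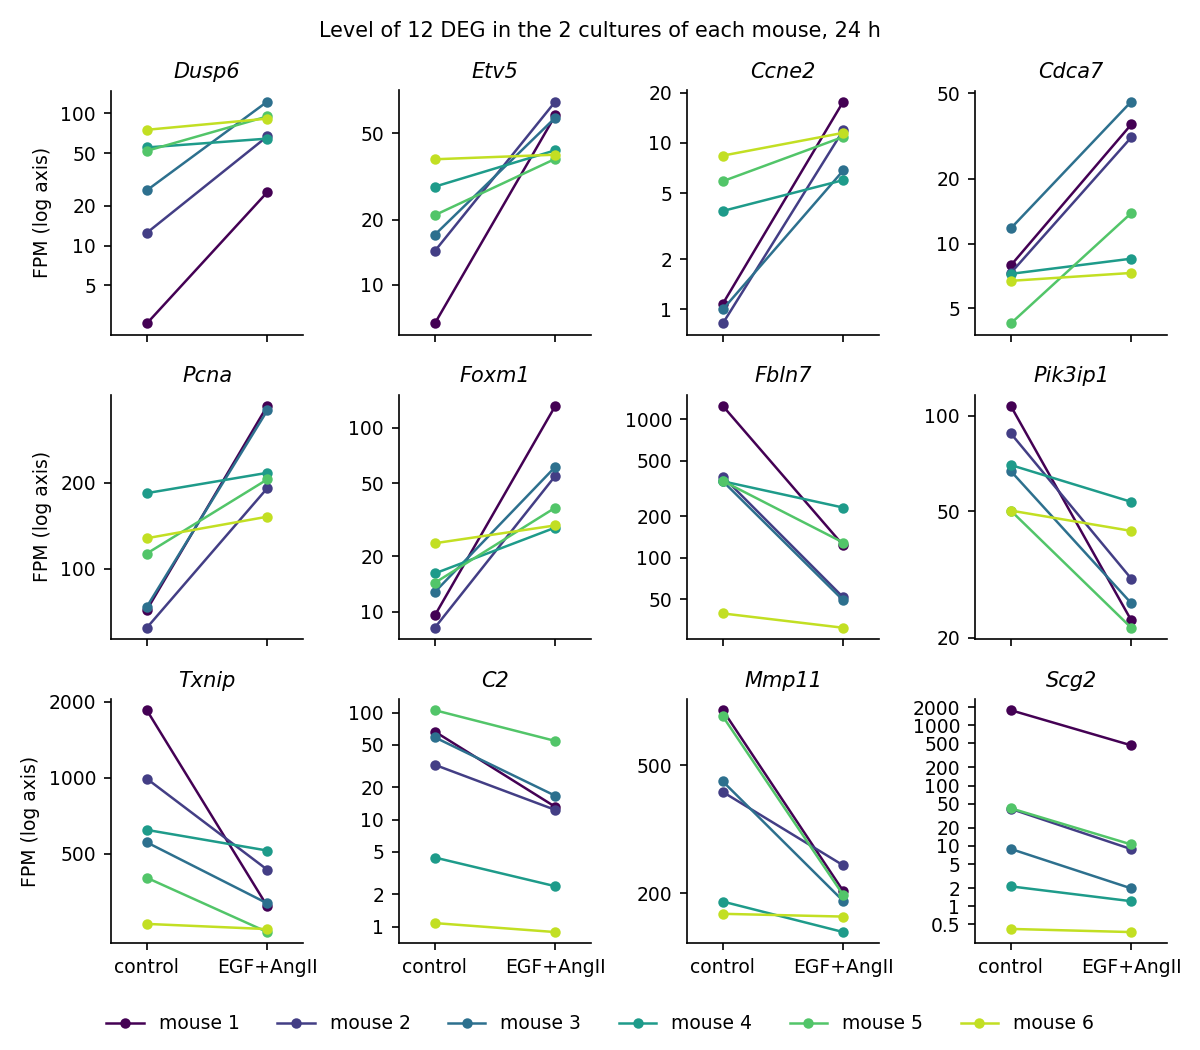
Levels of 12 DEG in FPM (log axis) in the control and EGF+AngII culture of each mouse, joined by a line per mouse. The 12 were picked from the named genes, part of which were named for changing the same way in 6 of 6 mice. All 12 do so, compared with 363 of all 455 DEG, and this is no result. Lines of mice 4 and 6 are mostly flatter than those of mice 1, 2 and 3, as for Dusp6 (2.58 to 25.3 FPM in mouse 1, 75 to 91.1 FPM in mouse 6).

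Among the ligands and receptors of the EGF family, 1 of 10 tested genes was a DEG (10%, compared with 3.13% of all genes that could be called). Ereg (chr5:91074622-91093646), a ligand of EGFR, was at 2.52, 9.93 and 25.9 FPM in control and 11.5, 23.5 and 34 FPM with EGF+AngII (1.22 ± 0.29, FDR 0.0379 in edgeR), with overlap and a rise in 6 of 6 mice. Egfr itself was at 20.2, 145 and 227 FPM in control and 22.2, 124 and 235 FPM with EGF+AngII, a log2-fold change of −0.06 with a 95% interval of −0.52 to 0.41 (FDR 0.904). The control levels of Egfr thus covered more than a 10-fold range between mice, whereas its log2-fold change was estimated within mice.

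The receptor of AngII was low. Agtr1a, which encodes the main AT1R of the mouse, was at 0, 2.42 and 19.7 FPM in control and 0, 0.956 and 3.78 FPM with EGF+AngII (−1.60 ± 0.53, FDR 0.0679 in edgeR, lower in 4 of 6 mice and higher in 1). Agtr1b did not pass the filter on low counts. Of the 9 tested genes of the renin-angiotensin system, 0 were DEG by edgeR and DESeq2, and 2 were lower at an unadjusted p under 0.05 in edgeR. Of all genes that could be called, 13.5% were lower at that p. Among 18 genes known to respond to AT1R or calcium, 1 was a DEG (5.56%, compared with 3.13% of all genes that could be called). This gene, Spp1 (chr5:104435118-104441050), encodes the secreted protein osteopontin and was at 1.92, 6.78, 5.04, 70.2, 39.5 and 109 FPM in the control cultures of mice 1 to 6 and at 42.6, 71.6, 397, 99.9, 71.5 and 166.3 FPM with EGF+AngII (2.54 ± 0.73, FDR 0.048). Its controls fell into a low range in mice 1, 2 and 3 and a higher one in mice 4, 5 and 6. Of 29 receptors for other vasoactive mediators, 1 fell (3.45%, near the 3.13% of all genes that could be called). This was the adrenergic receptor Adra1b (median 8.16 to 3.71 FPM, −0.95 ± 0.27, FDR 0.048). The thromboxane receptor gene Tbxa2r had −0.84 ± 0.32 with an FDR of 0.10 in edgeR.

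Lower DEG included a few matrix genes. Of 20 tested elastic fibre and fibulin genes, 2 fell and 0 rose (10%, compared with 3.13% of all genes that could be called). Their median was −0.52, and 8 were lower at an unadjusted p under 0.05 in edgeR, compared with 13.5% of all genes that could be called. Fbln7 (chr2:128862981-128897034), an adhesion protein of the fibulin family, had the smallest p of this list. It was at 1249, 385, 357, 357, 359 and 39.7 FPM in the control cultures of mice 1 to 6 and at 123, 51.8, 49.3, 230, 129 and 31.2 FPM with EGF+AngII, a log2-fold change of −1.997 ± 0.35 with an FDR of 0.0066 in edgeR. Mouse 6 stood apart with a low control level and a small decrease. Mfap4, a microfibril-associated protein, also fell (−1.87 ± 0.39, FDR 0.0314), from a median of only 0.973 to 0.289 FPM, with the highest control culture at 62.5 FPM.

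Eln, the elastin gene, was lower in 6 of 6 mice but at −0.72 ± 0.54 its FDR was 0.417 in edgeR. Of 24 matrix proteases and inhibitors, 1 fell (4.17%, near the 3.13% of all genes that could be called). This was Mmp11 (chr10:75923222-75936496), a stromal metalloproteinase, at 172.9, 429 and 741 FPM in control and 151.7, 194 and 244 FPM with EGF+AngII (−1.13 ± 0.30, FDR 0.0432 in edgeR). None (0) of 27 collagen and collagen-processing genes (median 0.06) and none (0) of 10 small leucine-rich proteoglycan genes (median −0.33) was a DEG by edgeR and DESeq2, with 5 and 2 genes at an unadjusted p under 0.05 in edgeR. The contractile apparatus and its SRF cofactors gave 0 DEG of 26 by both tools (median −0.26) and 2 lower genes at that p. Of all genes that could be called, 11.3% were higher and 13.5% lower at that p. Acta2 and Myh11 had −0.29 ± 0.38 and −0.45 ± 0.47, and both were lower in 4 of 6 mice.

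The lower DEG of the immune list were complement genes. Of 30 tested chemokine, IL-6 family and complement genes, 5 fell and 0 rose (median −0.09), and the 5 were C2, C3, C4b, C1ra and the C1 inhibitor Serping1. The share of DEG was 16.7%, compared with 3.13% of all genes that could be called. At an unadjusted p under 0.05 in edgeR, 6 genes of the list were higher and 8 lower, compared with 11.3% and 13.5% of all genes. C2 (chr17:34862604-34898265), a protease of the classical pathway, was at 1.08, 45.6 and 105 FPM in control and 0.889, 12.7 and 54.3 FPM with EGF+AngII (−1.41 ± 0.32, FDR 0.0339 in edgeR). Serping1 was at 20.1, 109 and 964 FPM in control and 2.25, 67.7 and 653 FPM with EGF+AngII (−1.41 ± 0.33, FDR 0.0367). The ranges overlapped almost wholly for both genes, while each was lower in 6 of 6 mice. C3, the central component, had means of 1015 and 467 FPM and fell by 1.04 on the log2 scale (FDR 0.048 in edgeR), being lower in 5 of 6 mice. The chemokine Ccl2 of the same list had 1.27 ± 0.41 and an FDR of 0.0632.

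Genes of quiescence and of the FOXO factors, which growth factor signalling keeps out of the nucleus, gave 0 higher and 3 lower DEG of 23 tested (median −0.34). The DEG were 13% of the list, compared with 3.13% of all genes that could be called. At an unadjusted p under 0.05 in edgeR, 11 of the 23 were lower, compared with 13.5% of all genes that could be called. Pik3ip1 (chr11:3330401-3342971), a membrane inhibitor of PI3 kinase, was at 107, 88.1, 67, 70, 50.3 and 50.3 FPM in the control cultures of mice 1 to 6 and at 22.7, 30.7, 25.7, 53.6, 21.5 and 43.4 FPM with EGF+AngII (−1.24 ± 0.33, FDR 0.0429 in edgeR). Txnip, which restrains glucose uptake and thioredoxin, was at 264, 588 and 1850 FPM in control and 245, 314 and 514 FPM with EGF+AngII (−1.07 ± 0.29, FDR 0.0455). The wide range of Txnip in control narrowed with EGF+AngII. Klf15 (chr6:90462576-90475238), a zinc finger factor known for restraining smooth muscle growth, was at 20.1, 30.5 and 35.8 FPM in control and 11, 15.2 and 19.9 FPM with EGF+AngII (−0.88 ± 0.22, FDR 0.0401), just without overlap of the groups.

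The lists of metabolic genes held 0% to 14.8% DEG, compared with 3.13% of all genes that could be called. Mthfd2 (chr6:83305691-83325908), a mitochondrial enzyme of folate metabolism, was at 35.9, 57.8 and 77.4 FPM in control and 66.4, 98.3 and 202 FPM with EGF+AngII, a change of 0.84 ± 0.15 with an FDR of 0.00846 in edgeR. With Mthfd1l of the same pathway (1.08 ± 0.26, FDR 0.0401) it was 1 of 2 higher DEG among 24 ATF4, serine and polyamine genes (8.33%, median 0.32). Of 27 genes for the breakdown of fatty acids and branched-chain amino acids, 3 fell (Acaa2, Eci1 and Bckdha, at −0.84, −0.65 and −0.83) and 1 rose, the transaminase Bcat1 (0.87 ± 0.23, FDR 0.0429). These DEG were 14.8% of that list. At an unadjusted p under 0.05 in edgeR, 12 of its genes were lower and 1 higher, compared with 13.5% and 11.3% of all genes that could be called. Cholesterol and fatty acid synthesis gave 0 DEG of 27 by edgeR and DESeq2 with a median of 0.64 and 4 higher genes at an unadjusted p under 0.05 in edgeR, and its median change was 2.11 in mouse 1 and 0.07 to 0.81 in the others. The MYC network and ribosome biogenesis gave 0 DEG of 39 by both tools (median 0.23), with 15 higher and 4 lower genes at that p.

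Secreted growth factors and signalling ligands gave few calls. The share of DEG was 4.55% in the first list below and 3.70% among the WNT and Notch genes, near the 3.13% of all genes that could be called. Of 44 IGF, PDGF, FGF and TGF-beta ligands and receptors, Inhba (activin A) rose, from a median of 33.2 to 52.9 FPM (1.00 ± 0.23, FDR 0.0339 in edgeR), and Fgf18 fell. Fgf18 (chr11:33117430-33147400) was at 8.86, 18.5 and 55.8 FPM in control and 1.38, 3.37 and 36.9 FPM with EGF+AngII (−2.34 ± 0.60, FDR 0.0408). Of 27 WNT and Notch genes, Wnt9a alone was a DEG (−0.76 ± 0.21, FDR 0.0441). Scg2 (chr1:79434669-79440120), a precursor of secreted neuropeptides, was at 1775, 41.2, 8.93, 2.14, 42.1 and 0.422 FPM in the control cultures of mice 1 to 6 and at 464, 8.85, 1.98, 1.21, 10.6 and 0.374 FPM with EGF+AngII (−1.81 ± 0.31, FDR 0.0066). Its level differed between mice from 0.422 to 1775 FPM in control, whereas its decrease was similar in mice 1, 2, 3 and 5.

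The lists with 0 DEG by edgeR and DESeq2 also included glycolysis and hypoxia (23 genes, 3 at an unadjusted p under 0.05 in edgeR), interferon response (27 genes, 2 at that p), circadian output (18 genes, 2) and apoptosis and p53 targets (22 genes, 7). These counts take both directions together. Of all genes that could be called, 11.3% were higher and 13.5% lower at that p. Apoe (−0.85 ± 0.24, FDR 0.048 in edgeR) was the DEG of the 17 retinoid and ABCA8-type transporter genes (5.88%, compared with 3.13% of all genes that could be called). Of the genes often used as references, Gapdh had 0.19 ± 0.22 (FDR 0.626), while Eef2 was lower in 6 of 6 mice, from a median of 7566 to 3779 FPM, and missed the threshold (−0.64 ± 0.20, FDR 0.0569).

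**Figure D4:**
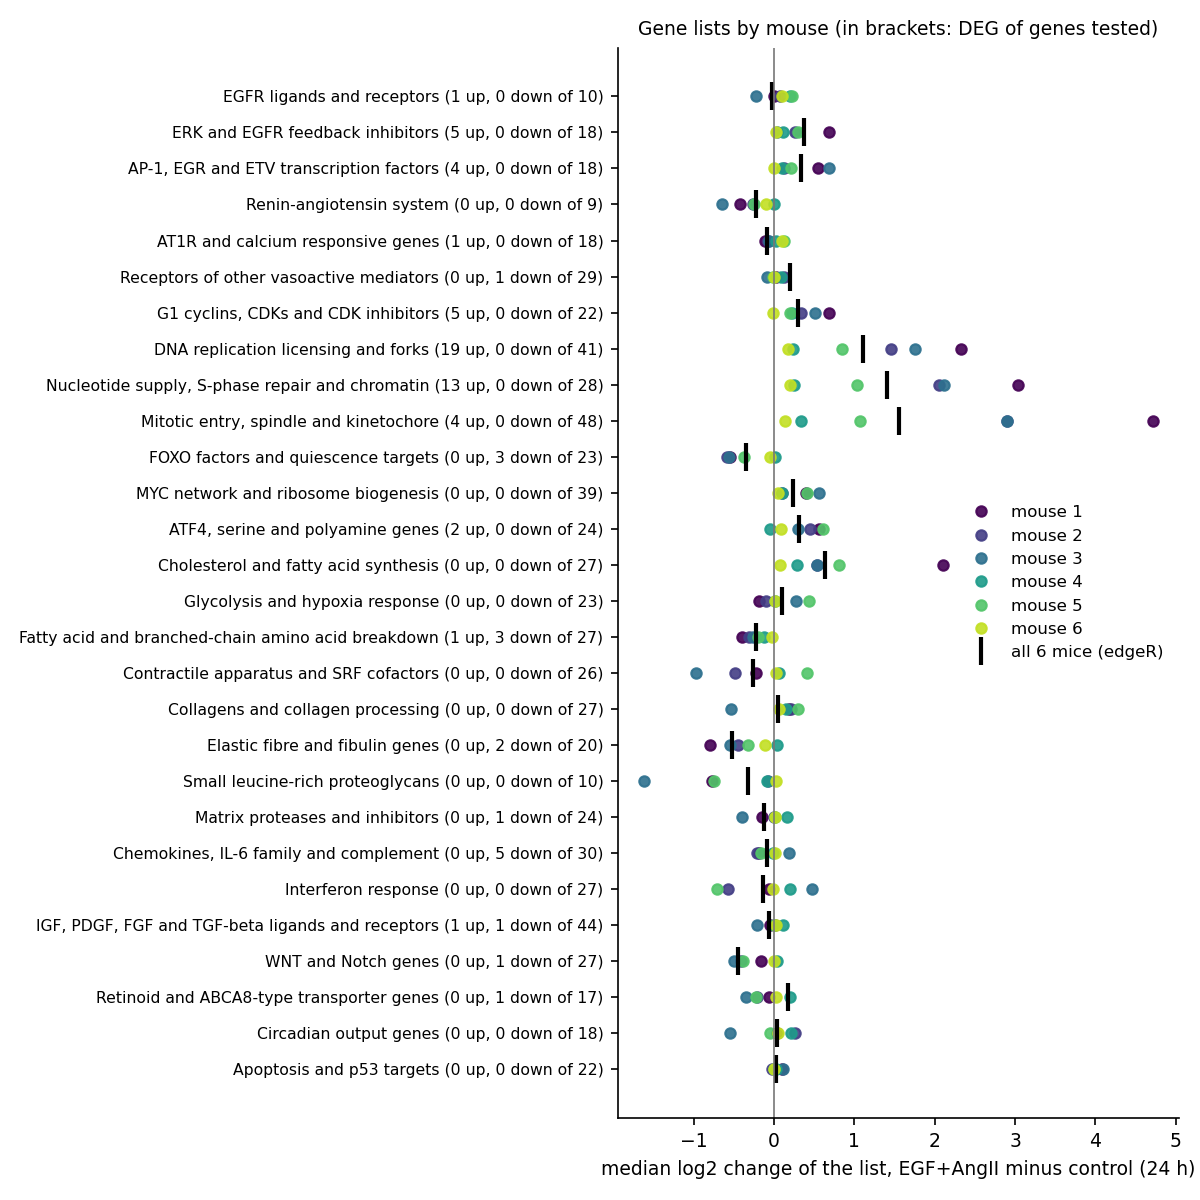
Median log2 change of 28 gene lists, EGF+AngII minus control, in each mouse (coloured points) and in the edgeR fit over 6 mice (black bars), with the number of DEG of genes tested in brackets. The replication, nucleotide and mitotic lists spread widest between mice, with mitotic medians from 0.14 in mouse 6 to 4.72 in mouse 1.

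Whether AngII changed the response to EGF was asked by setting EGF+AngII against the single stimuli in the same fit. Against AngII, 463 genes were DEG (3.19% of 14528), 238 higher (1.64%) and 225 lower (1.55%). Since both comparisons contain the EGF+AngII libraries, the 316 genes common to this list (68.3%) and to the 455 DEG (69.5%) are given as a count only. Against EGF, 0 genes (0%) were DEG by edgeR and DESeq2, with 69 genes at an unadjusted p under 0.05 in edgeR, and 0 by either tool alone. The interaction, which asks whether EGF+AngII departs from the sum of the single log2-fold changes, gave 0 DEG (0%) as well, with 57 genes at that p in edgeR and 0 by either tool alone. EGF against control gave 4 DEG (0.0275%), with an FDR under 0.05 for 5 genes in edgeR and 425 in DESeq2, and 2546 genes had p under 0.05 before adjustment by edgeR and by DESeq2.

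The changes of the 455 DEG in the other comparisons are given as values only, since the comparisons share libraries with the one that chose the genes. In EGF against control, which shares the control libraries, the higher DEG had a median log2-fold change of 0.79 and the lower DEG −0.65. In AngII against control, which shares them too, these medians were 0.04 and −0.02. The direct difference, EGF+AngII minus EGF, which shares the EGF+AngII libraries, had medians of 0.11 and −0.11, and its 95% interval held 0 for 452 of the 455 DEG. The interval reached a median of 0.44 (log2) to either side, and it lay within a 2-fold change in either direction for 419 of 455 DEG, so smaller differences between EGF+AngII and EGF remain possible. For Cdca7 the difference was −0.01 with an interval of −0.46 to 0.45, and for Dusp6 −0.02 with −0.63 to 0.60.

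Comparisons between other cultures of the same 6 mice used neither the control nor the EGF+AngII libraries. Their libraries were still part of the fit that set the spread and the mouse terms behind the DEG calls, so they are not independent of these. In EGF against AngII, 224 of the 224 higher and 231 of the 231 lower DEG changed in the same direction, with medians of 0.75 and −0.61. Of all genes tested, 47.03% were higher and 52.97% lower in EGF against AngII. Of the DEG, 217 higher and 218 lower had an unadjusted p under 0.05 in edgeR in that direction, compared with 8.77% and 9.72% of all genes tested. In EGF+U46619 against U46619 alone, 210 of 224 and 216 of 231 kept the direction, compared with 52.4% and 47.6% of all genes tested. The medians were smaller, at 0.23 and −0.18. An unadjusted p under 0.05 in edgeR was reached by 7 and 20, compared with 1.19% and 1.54% of all genes tested.

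After 48 h the medians of these genes lay near 0. EGF+AngII against control gave 0 DEG (0%) by edgeR and DESeq2 over all 48 h libraries, with 298 genes at p under 0.05 before adjustment by each of these tools. Within the batch of 48 h libraries that held EGF+AngII (5 cultures per group), the higher DEG of 24 h had a median log2-fold change of −0.03 and the lower DEG of 0.01. The 24 h direction was kept by 88 of 224 (39.3%) and 105 of 231 (45.5%), compared with 49.2% and 50.8% of all genes. Of the 455 DEG, 1 had an unadjusted p under 0.05 in edgeR in that batch, compared with 1.7% of all 15796 genes tested. Dusp6 and Etv5 had log2-fold changes of 0.01 and 0.00 there, Pcna −0.03 and Fbln7 0.11. The labels give these 5 sets of cultures the mouse numbers 7, 7, 10, 7 and 11, none of them among the 6 mice of 24 h, whereas the methods state another mouse for each replicate, so some sets may share an animal and the p-values may then rest on fewer than 5 animals. The 24 h and 48 h cultures were sequenced in separate batches, so time and batch cannot be told apart.

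**Figure D5:**
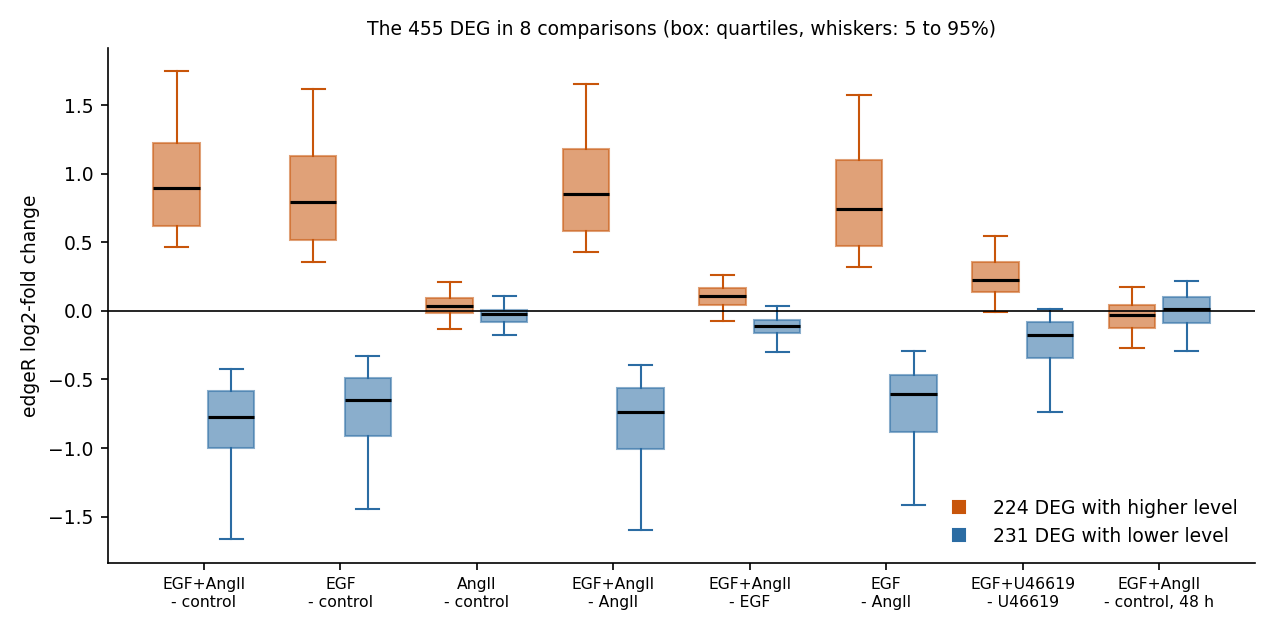
edgeR log2-fold change of the 455 DEG in 8 comparisons (x axis), as boxes of quartiles with whiskers from 5 to 95%, orange for the 224 higher and blue for the 231 lower DEG. The boxes of EGF+AngII, EGF and EGF minus AngII lie apart from 0, while those of AngII minus control, of EGF+AngII minus EGF (medians 0.11 and −0.11) and of 48 h lie near it.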

How the data were processed

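RNA was sequenced (paired-end, poly(A)-enriched) and the authors aligned reads to mm10 with HISAT2 2.1.0, counted reads per gene with featureCounts, multi-mapping reads included, and deposited whole-number counts per gene without normalization. Genes with near-identical copies therefore share counts, and strand was not stated to be used. Of 55401 genes, the 7075 on chromosomes 9, X, Y and MT were listed at 0 and not analysed here. Positions are from a GENCODE annotation of GRCm38.

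Counts of the 42 libraries of 24 h were fitted once, with mouse and treatment as terms, by edgeR 4.0.16 (quasi-likelihood test, filterByExpr, TMM) and DESeq2 1.42.0 (Wald test) in R 4.3.3. FDR are Benjamini-Hochberg adjusted over all 14653 genes tested, and every FDR printed is that of edgeR. DEG also had to pass the filter at 48 h, which left 14528 genes. SE are those implied by edgeR's statistic, per-mouse differences are of log2(FPM + 0.5), and set medians are of log2-fold changes. The scripts were tested on simulated data. Python 3.11.15, pandas 2.3.3 and Matplotlib 3.10.9 made summaries and figures. The members, gene lists and tests were chosen with earlier results of these data known. Genes named are the receptor and reference genes, the 12 DEG with the largest change each way among those changed the same way in 6 of 6 mice, and at most 3 of each list with the smallest p, of which some are not reported here. Further list members, and the comparisons EGF against AngII and EGF+U46619 against U46619, were chosen after their values were seen. The numbers pair the cultures because each mouse gave 1 culture per group, and the deviations of the 2 cultures of a mouse from their group means correlated at 0.635 to 0.852 in 6 of 6 mice. Alternatives were each tool alone, the likelihood ratio test, limma-voom (limma 3.58.1), DESeq2's size factors, other filters, no mouse term, only the groups compared, and each mouse left out.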

Additional observations from a re-analysis of the deposited data

Results flagged for a closer look

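Of 218 groups of 6 values tested for the named genes, 12 held 1 value set apart by Dixon's criterion, a rule that chance meets in about 1 of 20 groups. In the control cultures these were Aox3 in mouse 3 (39.0 FPM), Fbln7 in mouse 6 (39.7 FPM), Anpep in mouse 2 (51.7 FPM) and Wdr12 in mouse 4 (27.6 FPM). In the EGF+AngII cultures of mouse 1 they were Dtl (50.9 FPM), Nr4a2 (5.74 FPM), Elovl6 (68.9 FPM) and Gbp2 (4.35 FPM). In the other EGF+AngII cultures they were Aox3 in mouse 3 (8.47 FPM), Anpep in mouse 2 (33.4 FPM), and Cpz (1.497 FPM) and Hmcn1 (14.5 FPM) in mouse 6. Aox3 and Anpep stood apart in both cultures of 1 mouse.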

How the results depend on the processing

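The counts of DEG depended on the tool and on the mice, and the cause was not tested. Against control and against AngII, respectively, DESeq2 alone gave 1265 and 1287 DEG, edgeR's likelihood ratio test 986 and 1036, and limma-voom 888 and 904, compared with 455 and 463. Without the mouse as a replicate block, or with only the groups compared in the fit, 0 genes were DEG in either comparison (1316 and 1304, and 3459 and 4143 genes with an unadjusted p under 0.05 in edgeR and DESeq2). Leaving out 1 mouse gave 0 to 1115 DEG against control and 0 to 870 against AngII, with 0 without mouse 1, 2, 3 or 5 and the highest count without mouse 6. limma-voom split the 888 into 532 higher and 356 lower, and the 1115 without mouse 6 were 685 higher and 430 lower. DESeq2's size factors (329 and 472) and the filters on low counts or FPM (455 to 492) kept both counts within 1.5 times. Similar counts did not mean the same genes. Without the filter on low counts, 347 of the 455 and 341 of the 463 DEG were called again, and without mouse 4, 355 and 385. Against EGF, for the interaction and after 48 h, each alternative run gave 0 DEG. Over 1415 values of the 109 named genes under alternatives, 970 kept their direction and side of the threshold, 0 reversed a called direction, 3 changed sign without being called, 351 no longer passed the threshold and 91 newly passed it. Depth limits genes of a few FPM, such as Mfap4 with 1 to 1044 counts per control library and 0 to 228 with EGF+AngII.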
